A study of Sus scrofa with 6 samples.

Results

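Glucocorticoid and FOXO responsive genes were followed in renal medulla of pigs after cardiopulmonary bypass (CPB), through 10 genes: the steroid receptors NR3C1 and NR3C2, the cortisol converting enzymes HSD11B1 and HSD11B2, the steroid targets FKBP5, TSC22D3 and SGK1, the transcription factors FOXO1 and FOXO3, and the ubiquitin ligase gene FBXO32. Members were all probe sets that the array annotation gives to one of these symbols alone, which are 17 of 23999 probe sets and cover 9 of the 10 genes. No probe set carries the symbol NR3C2 alone, so this receptor was not analysed here. FBXO32 was chosen for its difference between CPB and Sham on these same arrays, and its values in that comparison are given as a description, with no test. The other genes were named by symbol, with earlier results of these data known.

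The 6 pigs, White-Landrace crossbred in the labels and Large White-Landrace in the methods, contributed 1 array each, 3 per group. CPB animals had 2.5 hours of bypass through a neck dissection under general anaesthesia, and Sham animals had 2.5 hours of general anaesthesia with the same dissection, and all of them, Sham included, were heparinised systemically. The medulla was taken 24 hours after the intervention, from adult females according to the methods. Whether any animal received a glucocorticoid is not stated in the sources used here, so it is unknown whether steroid exposure differed between the groups.

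Cortisol acts through NR3C1, the glucocorticoid receptor, which a chaperone complex holds in the cytoplasm until the steroid binds. HSD11B1 regenerates cortisol from cortisone, while HSD11B2 inactivates it in the distal nephron and keeps it away from the mineralocorticoid receptor NR3C2. FOXO1 and FOXO3 turn on genes of fasting and atrophy, and the kinases AKT and SGK1 drive them out of the nucleus. FBXO32, also called atrogin-1 or MAFbx, is the substrate-binding subunit of a ubiquitin ligase, known from rodent skeletal muscle as a gene that both FOXO factors and glucocorticoids induce during wasting.

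FBXO32 was lower in CPB medulla on both of its probe sets, by 1.77-fold and 1.92-fold, which are values of the comparison that chose it. None of the 15 probe sets of the other 8 genes met the study's threshold of an unadjusted p under 0.05 with at least 1.6-fold, where 0.304% of all probe sets did. The receptor, the enzymes, the steroid targets and the FOXO factors differed by at most 0.29 on the log2 scale, and the 95% intervals of all 15 differences held 0. By fold alone, the nearest to the 1.6-fold limit among these 8 genes was FKBP5, which did not reach it and was higher in CPB by 1.22-fold.

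**Figure D1:**
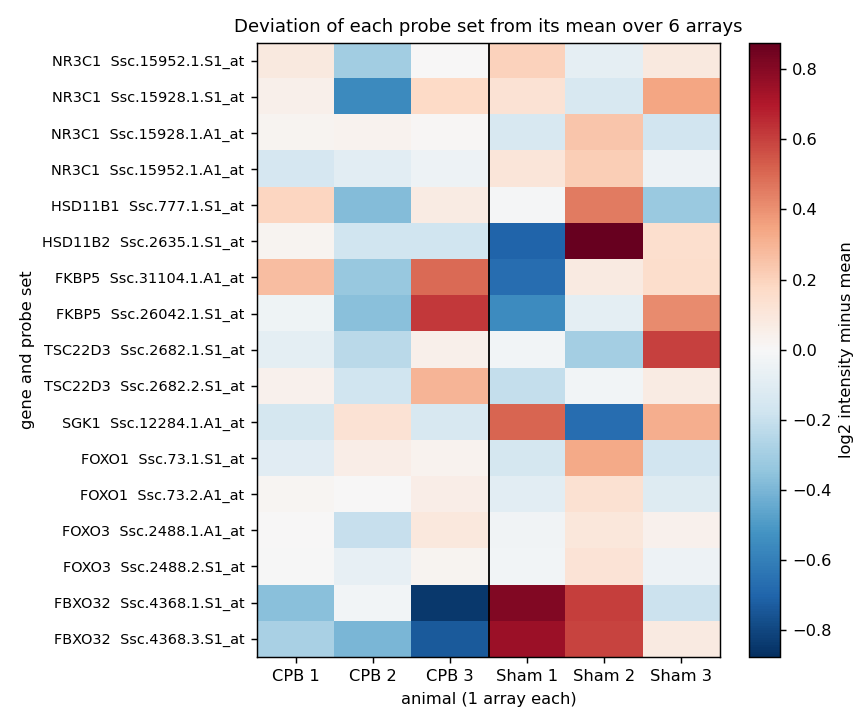
Deviation of each of the 17 member probe sets from its own mean over the 6 arrays, as log2 RMA intensity. Columns are animals, with CPB left of the line and Sham right of it. Both FBXO32 rows are lowest in CPB 3 and high in Sham 1 and Sham 2, while the HSD11B2 and SGK1 rows take their extremes in Sham 1 and Sham 2.

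Intensities below are linear RMA values, and differences are mean log2 intensity in CPB minus that in Sham, with the standard error of limma's moderated fit and n = 3 animals per group. The array medians lay between 94.6 and 96.9. The 15 probe sets other than FBXO32 were tested in one fit over all 23999 probe sets, and their adjusted p lay between 0.995 and 0.999. None had an unadjusted p under 0.05, either with limma or with the methods' t-test, where 1.4% of all probe sets did with limma. Of the 15, 5 had a higher and 10 a lower mean in CPB, against 55.9% higher and 44.1% lower among all probe sets, and their median difference was -0.067. For 8 of the 15 the 95% interval of the difference lay inside a 1.6-fold change in both directions, and for the other 7 the interval reached beyond it in at least one direction.

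Tissue marker signals differed between animals of one group. Of 19 listed proximal tubule markers 11 were measured, and their summed intensity was 28079, 3082 and 30735 in CPB 1, CPB 2 and CPB 3, against 1850.1, 25959 and 9326 in Sham 1, Sham 2 and Sham 3. All 11 had a higher mean in CPB and none met the study's threshold. The 4 measured urothelium markers had sums of 184 to 1054 in CPB and of 196 to 1931 in Sham. CPB 2 and Sham 1 thus had little proximal tubule signal, and the urothelium markers stood highest in Sham 3. Thick limb markers (3 of 7 measured, sums of 2673 to 3838 in CPB and 2305 to 4048 in Sham) and collecting duct principal cell markers (4 of 8 measured, 1640.1 to 8589 in CPB and 1616 to 6040 in Sham) also varied between animals. In bulk tissue fewer cells of a type and less RNA per cell cannot be told apart.

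The glucocorticoid receptor gene NR3C1 had 4 probe sets, in 2 pairs whose names differ only by the suffix S1 or A1. The brightest, Ssc.15952.1.S1_at, had intensities of 123, 93.9 and 117 in CPB 1, CPB 2 and CPB 3, against 134, 110.1 and 123 in Sham 1, Sham 2 and Sham 3. The groups overlapped, with CPB 2 the lowest animal. The log2 difference was -0.14 (standard error 0.15, 95% interval -0.51 to 0.23). Ssc.15928.1.S1_at also had its lowest value in CPB 2, at 45.8 beside 69.6 and 76.0 in the other CPB animals, against 73.7, 61.1 and 85.6 in Sham, a difference of -0.22 (standard error 0.24, 95% interval -0.80 to 0.35). The receptor therefore stood lowest in the same animal on both S1 probe sets.

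The A1 probe sets of NR3C1 ordered the animals in another way. Ssc.15928.1.A1_at lay at 57.5, 57.9 and 56.9 in CPB 1, CPB 2 and CPB 3, against 51.3, 66.9 and 50.5 in Sham, a difference of 0.044 (standard error 0.14, 95% interval -0.31 to 0.39). Ssc.15952.1.A1_at was dim, at 14.1, 14.7 and 15.1 in CPB and 16.8, 18.1 and 15.1 in Sham. It was the only one of the 15 probe sets whose groups did not overlap, where 5.27% of all probe sets had no overlap (1.89% with CPB lower), and CPB 3 and Sham 3 differed only in the decimals (15.1003 in CPB 3 and 15.1218 in Sham 3). Its difference was -0.19 (standard error 0.12, 95% interval -0.47 to 0.095).

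HSD11B1 (Ssc.777.1.S1_at), the reductase that makes active cortisol, had intensities of 179, 121 and 165 in CPB 1, CPB 2 and CPB 3, against 156, 215 and 125 in Sham 1, Sham 2 and Sham 3. Sham 2 was the highest animal, and CPB 2 was the lowest with Sham 3 close to it. The difference was -0.081 (standard error 0.25, 95% interval -0.69 to 0.53). HSD11B2 (Ssc.2635.1.S1_at), the dehydrogenase that protects aldosterone target cells from cortisol, lay at 1053, 919.5 and 921 in the CPB animals and at 638, 1903 and 1150.4 in the Sham animals. All 3 CPB values sat inside the Sham range, which spanned 2.98-fold. HSD11B2 averaged 964 ± 76.7 in CPB and 1231 ± 636 in Sham (SD, n = 3 each), a log2 difference of -0.22 (standard error 0.39, 95% interval -1.16 to 0.73), the widest interval of the 15. The difference was -0.62 without Sham 1 and 0.17 without Sham 2.

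FKBP5 encodes a cochaperone that glucocorticoids induce and that lowers the affinity of their receptor, and it was measured on 2 probe sets. Ssc.31104.1.A1_at gave 479.5, 317 and 562 in CPB 1, CPB 2 and CPB 3, against 250.4, 421 and 443 in Sham 1, Sham 2 and Sham 3. Ssc.26042.1.S1_at gave 130.1, 104 and 205 in the CPB animals, against 91.3, 126 and 178 in the Sham animals. CPB 3 was the highest and Sham 1 the lowest animal on both, and the groups overlapped. The differences were 0.29 (standard error 0.31, 95% interval -0.46 to 1.04) and 0.15 (standard error 0.34, 95% interval -0.68 to 0.98), the largest upward differences among the members.

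On its brighter probe set FKBP5 stood lowest in CPB 2 and Sham 1, the 2 animals with the lowest proximal tubule markers, and highest in CPB 3 and CPB 1, the 2 with the highest. With the proximal tubule markers as a covariate its difference was 0.086 (standard error 0.16), and -0.020 on the other probe set. The fit with these markers describes the arrays, and the part of tissue composition in the FKBP5 values was not tested.

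TSC22D3, which encodes the leucine zipper protein GILZ and is a direct glucocorticoid target, had intensities of 486, 439 and 533 in CPB 1, CPB 2 and CPB 3, against 508, 419.8 and 783 in Sham 1, Sham 2 and Sham 3, on its brighter probe set, Ssc.2682.1.S1_at. Sham 3 stood above all others, and the CPB animals lay inside the Sham range. The difference was -0.19 (standard error 0.25, 95% interval -0.78 to 0.41). It was -0.38 without Sham 2 and 0.069 without Sham 3. On the dimmer Ssc.2682.2.S1_at the values were 54.7, 47.1 and 65.3 in CPB and 46.1, 52.3 and 56.0 in Sham. There CPB 3 was highest, and the difference was 0.11 (standard error 0.16, 95% interval -0.29 to 0.50), so the probe sets of this gene differed in sign.

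SGK1 (Ssc.12284.1.A1_at), a kinase that aldosterone and glucocorticoids induce and that raises sodium uptake in the distal nephron, had intensities of 1121, 1361 and 1132 in CPB 1, CPB 2 and CPB 3, against 1778, 786 and 1552 in Sham 1, Sham 2 and Sham 3. The CPB animals lay close together inside a Sham range of 2.26-fold. SGK1 averaged 1204 ± 136 in CPB and 1372 ± 520.0 in Sham (SD, n = 3 each), a log2 difference of -0.11 (standard error 0.32, 95% interval -0.89 to 0.67). The 3 animals richest in proximal tubule markers, CPB 1, CPB 3 and Sham 2, were the 3 lowest for SGK1. With these markers as a covariate the difference was 0.070 (standard error 0.23). It was 0.12 without Sham 1 and -0.47 without Sham 2 (standard error 0.15, limma's unadjusted p = 0.0251), so its sign and size rested on single Sham animals.

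**Figure D2:**
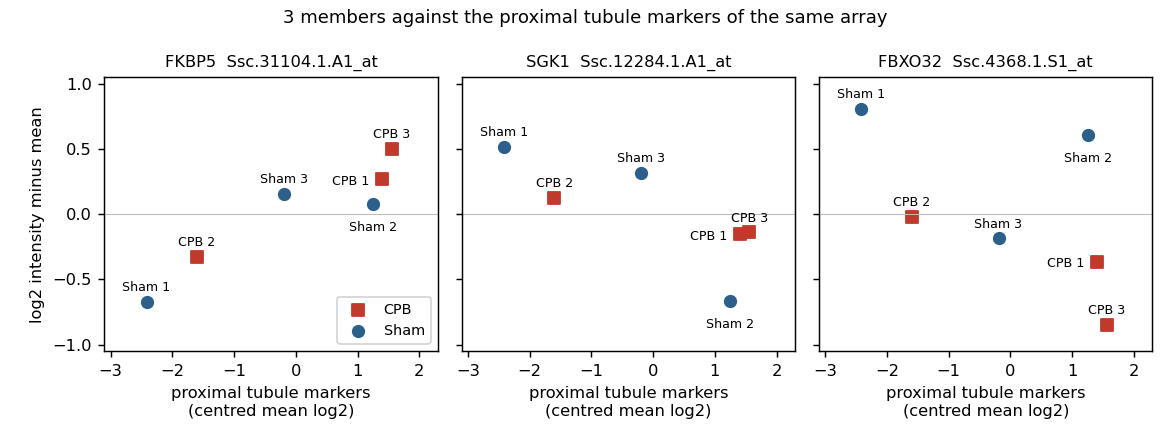
Deviation of FKBP5, SGK1 and FBXO32 from their means over 6 arrays (vertical axis, log2 intensity, the brightest probe set of each gene) against the centred mean log2 intensity of 11 proximal tubule markers on the same array (horizontal axis). Squares are CPB and circles are Sham animals. FKBP5 is lowest and SGK1 highest in Sham 1, which has the lowest marker mean at -2.42. FBXO32, chosen from the comparison of these groups, lies lower in CPB 1 and CPB 3 than in Sham 2. It lies higher in CPB 2 than in Sham 3. Marker means are 1.40, -1.60 and 1.56 in CPB 1, CPB 2 and CPB 3, and 1.25 and -0.19 in Sham 2 and Sham 3.

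FOXO1 and FOXO3, the forkhead factors that insulin signalling restrains, were each measured on 2 probe sets. FOXO1 (Ssc.73.1.S1_at) had intensities of 302, 336 and 329 in CPB 1, CPB 2 and CPB 3, against 289.6, 406 and 288 in Sham 1, Sham 2 and Sham 3, with Sham 2 above all others. Its difference was -0.0064 (standard error 0.17, 95% interval -0.42 to 0.40). On the dimmer FOXO1 probe set, Ssc.73.2.A1_at, the animals lay between 76.4 and 79.2 in CPB and between 70.3 and 83.7 in Sham, again with Sham 2 highest, and the difference was 0.048 (standard error 0.12, 95% interval -0.24 to 0.33).

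FOXO3 gave 67.1, 58.1 and 71.4 in the CPB animals, against 65.4, 71.4 and 68.4 in the Sham animals, on the brighter of its probe sets, Ssc.2488.1.A1_at. The difference was -0.067 (standard error 0.12, 95% interval -0.37 to 0.23), and -0.033 (standard error 0.11, 95% interval -0.29 to 0.23) on Ssc.2488.2.S1_at. On both FOXO3 probe sets CPB 2 was the lowest and Sham 2 the highest animal. All 4 FOXO intervals lay inside a 1.6-fold change in both directions.

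**Figure D3:**
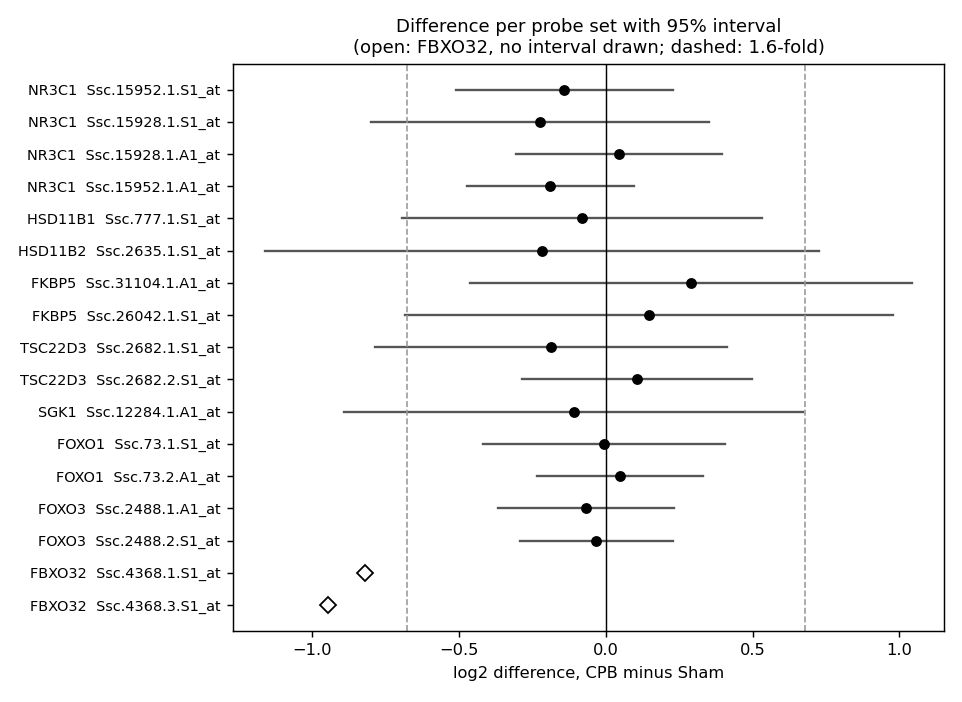
Log2 difference in RMA intensity, CPB minus Sham (horizontal axis), for each member probe set (vertical axis). Dots with bars are the 15 tested probe sets with 95% intervals from limma, open diamonds are FBXO32, which was chosen from this comparison and is drawn without an interval, and dashed lines mark 1.6-fold. Every bar holds 0, and the FBXO32 diamonds lie at -0.82 and -0.94.

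FBXO32 was measured by Ssc.4368.1.S1_at and by the dimmer Ssc.4368.3.S1_at, the probe set from which the gene was chosen. Intensities on the brighter probe set were 293, 371 and 209.5 in CPB 1, CPB 2 and CPB 3, against 660.4, 574 and 331 in Sham 1, Sham 2 and Sham 3. CPB 2 lay above Sham 3, so the groups overlapped there. FBXO32 averaged 291 ± 80.9 in CPB and 522 ± 171 in Sham (SD, n = 3 each), a log2 difference of -0.82 (standard error 0.33).

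On the dimmer probe set the intensities were 82.9, 76.6 and 60.6 in the CPB animals and 169.6, 152 and 107 in the Sham animals. Here the groups did not overlap, and every CPB animal lay below Sham 3. The means were 73.4 ± 11.5 in CPB and 143 ± 32.5 in Sham (SD, n = 3 each), and the log2 difference was -0.94 (standard error 0.22). Both probe sets placed Sham 1 highest, Sham 2 next and CPB 3 lowest.

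**Figure D4:**
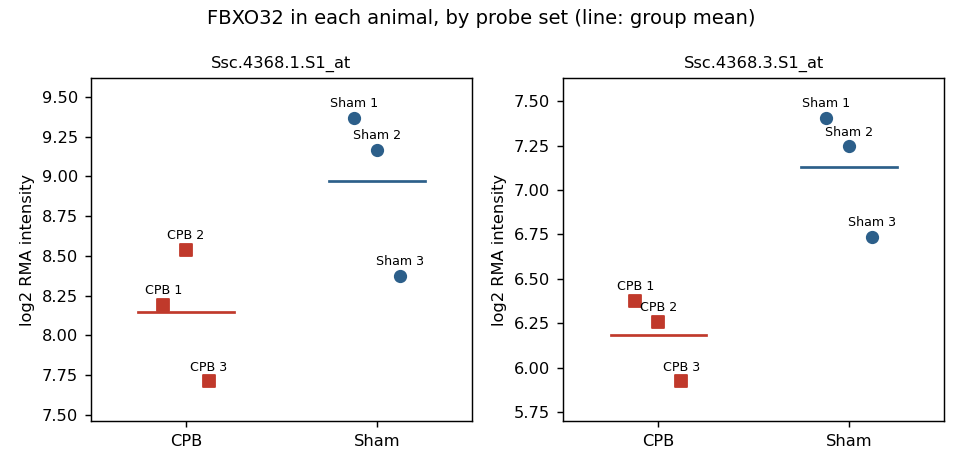
Log2 RMA intensity of FBXO32 (vertical axis, which does not start at 0) in each animal, on the brighter probe set at the left and the dimmer one at the right. Squares are CPB animals, circles are Sham animals, and lines are group means. CPB 2 lies above Sham 3 on the brighter probe set (intensity 371 for CPB 2 and 331 for Sham 3), and every CPB animal lies below Sham 3 on the dimmer one.

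Tissue markers were set beside FBXO32 because the gene is best known from muscle. Summed intensities of the 6 measured of 8 skeletal muscle markers were 203, 264 and 201 in CPB 1, CPB 2 and CPB 3. In Sham 1, Sham 2 and Sham 3 they were 286, 217 and 192. The 5 of 7 smooth muscle markers summed to 1574, 5425 and 1680 in CPB, and to 6808, 1827 and 4145 in Sham. Both sums were highest in Sham 1 and, among CPB animals, in CPB 2, as was FBXO32 on its brighter probe set. The skeletal muscle sum of Sham 1 rested largely on CKM, at 166. MYH7, MYH2 and TTN were lowest in Sham 1, and TNNT3 and MYL1 lay in between. As centred mean log2 intensity both lists were highest in CPB 2, at 0.14 for skeletal and 0.60 for smooth muscle. Sham 1 then stood at -0.0066 and 0.46. Sham 2, next highest for FBXO32, had the lowest smooth muscle sum of the Sham animals. The relation of FBXO32 to muscle markers was not tested. Neither marker list met the study's threshold with any gene. RMA gives no value of 0, so absence of a marker cannot be read from the array. On the brighter probe set FBXO32 was 371 in CPB 2 and 660.4 in Sham 1, the animals low in proximal tubule markers. It was 293 and 209.5 in CPB 1 and CPB 3 and 574 in Sham 2, the animals highest in them. Sham 3, between these animals with a marker sum of 9326, had 331, below CPB 2. With the proximal tubule markers as a covariate the FBXO32 differences were -0.69 and -0.89, and without Sham 1 and CPB 2 they were -0.82 and -0.84. All these FBXO32 values come from the comparison that chose the gene, and the part of tissue composition in them was not tested.

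The members also differed in how far animals of one group were apart. Among the 15 probe sets other than FBXO32, all 3 CPB animals lay inside the Sham range for 6, where 22.3% of all probe sets did so, and the SD of log2 intensity was larger in Sham for 10, against 53.3% of all probe sets. The SD was 0.11 in CPB and 0.79 in Sham for HSD11B2, and 0.16 in CPB and 0.63 in Sham for SGK1. Of all 17 member probe sets none had its highest value in CPB 1 or CPB 2, 3 had it in CPB 3, and 8 had it in Sham 2. CPB 2 was the lowest animal for 5 probe sets and Sham 1 for 4. These counts include both FBXO32 probe sets, chosen from this comparison, which were highest in Sham 1 and lowest in CPB 3. The matching shares over all probe sets were not counted, so the counts describe the arrays only. Sham 1 and Sham 2 stood at opposite ends for HSD11B2 and for SGK1, in opposite order.

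The genes around the members were read from 7 lists, in which 92 distinct genes were measured, each on its brightest probe set. None of the 92 met the study's threshold with limma or with the methods' t-test, and with limma 1 was higher and 1 lower at an unadjusted p under 0.05, where 0.304% of all probe sets met the threshold and 1.4% had such a p. Groups did not overlap for 7 of the 92, 5 higher and 2 lower in CPB, against 3.38% higher and 1.89% lower among all probe sets. No gene of these lists passed limma's adjusted p, which was at least 0.995. The median difference over all probe sets was 0.027, and list medians are read beside it.

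**Figure D5:**
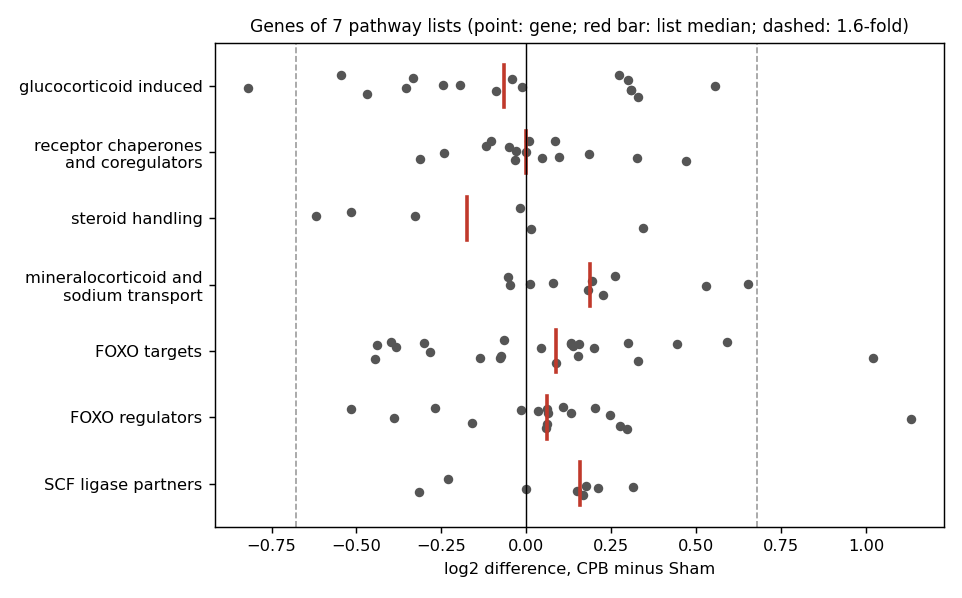
Log2 difference, CPB minus Sham (horizontal axis), of the measured genes of 7 pathway lists (vertical axis), with 1 point per gene on its brightest probe set. Red bars are list medians, between -0.17 and 0.19, and dashed lines mark 1.6-fold. The points outside the dashed lines did not meet the study's threshold because their unadjusted p was above 0.05.

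Of 24 listed glucocorticoid-induced genes 16 were measured, 6 with a higher and 10 with a lower mean in CPB and a median of -0.065. ANGPTL4, an inhibitor of lipoprotein lipase, had intensities of 593, 515 and 689 in CPB 1, CPB 2 and CPB 3, against 381, 495 and 351 in Sham 1, Sham 2 and Sham 3. The CPB animals were all above the Sham animals, and the difference of 0.56 (standard error 0.18, 95% interval 0.11 to 1.00) was below 1.6-fold (unadjusted p = 0.0229 and adjusted p = 0.995 from limma). GADD45B, a stress sensor, lay at 139.9, 140.4 and 112 in CPB and 269, 131 and 194 in Sham, a difference of -0.55 (standard error 0.28).

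Of 34 listed FOXO targets 23 were measured, 13 with a higher and 10 with a lower mean in CPB and a median of 0.087. CCNG2, an atypical cyclin that FOXO factors induce in quiescent cells, had intensities of 514, 515 and 362 in CPB 1, CPB 2 and CPB 3, against 585, 634 and 646 in Sham 1, Sham 2 and Sham 3. All CPB animals lay below all Sham animals, and the difference was -0.44 (standard error 0.17, 95% interval -0.86 to -0.022, unadjusted p = 0.0419 and adjusted p = 0.995 from limma). BNIP3L, a mitophagy receptor, lay at 882, 1139.5 and 894 in CPB and at 1542, 981 and 1504 in Sham, with overlapping groups and a difference of -0.45 (standard error 0.22).

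Of 31 listed FOXO regulators 17 were measured, 12 with a higher mean in CPB, at a median of 0.060. PRKAA2, a catalytic subunit of AMP-activated kinase, had no overlap, at 129, 141 and 122 in CPB and 114, 109.5 and 100.3 in Sham, with a difference of 0.27 (standard error 0.12). YWHAQ, a 14-3-3 protein of the family that holds phosphorylated FOXO in the cytoplasm, differed by -0.39 (standard error 0.24). SGK2, a relative of SGK1 that was picked here after its values were seen, lay at 838, 155 and 957 in CPB 1, CPB 2 and CPB 3, against 81.9, 710.1 and 202 in Sham 1, Sham 2 and Sham 3. Its 3 highest animals were the 3 lowest for SGK1 and also the 3 richest in proximal tubule markers. The SGK2 difference of 1.13 had a standard error of 1.01, and its relation to SGK1 was not tested.

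Of 22 listed chaperones and coregulators of the steroid receptors 15 were measured, with 8 higher and 7 lower means in CPB and a median of 4.2e-04. CALR, the chaperone calreticulin, and BAG1, a cofactor of HSP70, had no overlap and differed by 0.47 (standard error 0.25) and 0.18 (standard error 0.12). The CALR groups nearly touched, at 230.7 in CPB 1 and 229.2 in Sham 1, and CPB 2 was highest at 439. Of 10 listed steroid handling genes 6 were measured, with a median of -0.17. The cytochrome gene CYP3A39 differed by 0.34 (standard error 0.20), and the efflux pump gene ABCB1 by -0.62 (standard error 0.39) with 1 high animal, Sham 1, at 199.5.

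Of 18 listed mineralocorticoid and sodium transport genes 10 were measured, 8 with a higher mean in CPB, at a median of 0.19. USP2, a deubiquitinase that acts on the sodium channel ENaC, lay at 761, 959 and 757 in CPB 1, CPB 2 and CPB 3, against 687, 627 and 329 in Sham 1, Sham 2 and Sham 3. The groups did not overlap, and the difference was 0.65 (standard error 0.30). PRSS8, the protease prostasin that activates this channel, differed by 0.53 (standard error 0.34). Among 8 of 14 listed partners and substrates of the ubiquitin ligase, UBE2D2, a ubiquitin-conjugating enzyme, was lower without overlap, with a difference of -0.32 (standard error 0.15), CDC34 differed by 0.31 (standard error 0.21), and the median was 0.16.

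The pattern of FBXO32 over the 6 arrays, on its brighter probe set, was most like that of TINF2, FUBP3, VRK3, GPANK1 and SNUPN among 6389 candidate probe sets with 1 gene symbol and a mean intensity above the median. Pearson's r over the 6 arrays was 0.96, 0.93, 0.93, 0.91 and 0.91 in that order, as a description. TINF2 lay at 121, 137 and 118 in CPB 1, CPB 2 and CPB 3, against 155, 143 and 127 in Sham 1, Sham 2 and Sham 3, a much narrower range than that of FBXO32. The nearest patterns of the other members were FAM91A1 for NR3C1, CYP3A22 for HSD11B1, ING4 for HSD11B2 and LOC102166602 for FKBP5. Their r was 0.98, 0.997, 0.95 and 0.998 in that order. For TSC22D3, SGK1, FOXO1 and FOXO3 they were KPNA1, SEC23B, CD83 and SMAP1, with r of 0.99, 0.99, 0.99 and 0.996. Each gene was picked for a high r among 6389 candidates over only 6 arrays, so high values follow from the choice. The points of each correlation share the same 6 arrays and their tissue composition.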

How the data were processed

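RNA of renal medulla from 6 pigs was hybridised to Affymetrix porcine arrays, 1 per animal. The authors normalised the scans with RMA in ArrayStar (background correction, quantile normalization, median polish) and deposited intensity values for 24123 probe sets. Their linear scale was read from the values, and log2 was taken first. Signal over background is unknown, and the number of arrays limits the precision. No genome build is named, so no positions are given.

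After 124 control probe sets were left out, CPB and Sham were compared over 23999 probe sets with limma 3.58.1 in R 4.3.3, with group as the only term, two-sided, with Benjamini-Hochberg adjustment. Each replicate is 1 animal, and limma's p-values set each difference against the spread between animals, moderated over all probe sets. The annotation gives 1 symbol to 10099 probe sets and several to 198, and 13826 are unnamed.

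The members and the lists were chosen with earlier results of these data known. Text names all members, the 2 list genes of smallest p per list, any list gene past the threshold, and the nearest patterns. Alternatives were the methods' t-test, limma with a trend or array weights, 2 renormalisations, a dim filter, control probe sets kept, a pseudocount of 16, the replicate block, a tubule marker covariate, each array left out, and other fold minimums. Leaving out Sham 1 with CPB 2 and a urothelium covariate were added after seeing the data. The fit was tested on simulated data.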

Additional observations from a re-analysis of the deposited data

How the results depend on the processing

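None of the 15 member probe sets other than FBXO32 met the study's threshold under any alternative run. Among them, limma's unadjusted p fell under the threshold in 2 cases, both below 1.6-fold, SGK1 without Sham 2 (-0.47, unadjusted p = 0.0251 from limma) and HSD11B1 with the urothelium covariate (-0.37, unadjusted p = 0.0249 from limma). The FBXO32 differences lay between -1.12 and -0.60 and between -1.14 and -0.81 with 1 array left out at a time. With limma's p, 73 of all 23999 probe sets (0.304%) met the threshold, a count of the fit used here and not the study's own. With the methods' t-test the count was 30 on log2 and 26 on linear values. It was 48 with log2 of intensity plus 16, 21 at a fold minimum of 2 and 333 without Sham 1 and CPB 2. With 1 array left out it ranged from 52 to 701 (701 without Sham 2 and 693 without CPB 2). Array weights, whose estimation stopped before convergence, gave 2116. Of the pathway list genes, 11 met the threshold with array weights, 1 with the proximal tubule covariate, 1 without Sham 1 and CPB 2, and 0 to 3 with 1 array left out, 3 without CPB 2 (PDK4, MAOA and SOD2), 3 without Sham 2 (ANGPTL4, CD163 and GADD45B) and 1 without Sham 1 (USP2).

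Differences of members that turned sign were all small and uncalled, and the cause was not tested. Array weights gave 0.24 for HSD11B1, 0.10 for HSD11B2, 0.026 for FOXO1 and 0.014 for the dimmer FOXO3 probe set, and centring on array medians gave 0.0045 for FOXO1. The proximal tubule covariate gave 0.070 for SGK1 and -0.020 for the dimmer FKBP5 probe set. The urothelium covariate gave 0.19 for SGK1, -0.056 for NR3C1 on Ssc.15928.1.A1_at and -0.022 for the dimmer FOXO1 probe set. Without Sham 1 and CPB 2 the differences were 0.042, 0.0076 and -0.022 for NR3C1 on Ssc.15952.1.S1_at, Ssc.15928.1.S1_at and Ssc.15928.1.A1_at, 0.064 for HSD11B1 and 0.028 for SGK1. With 1 array left out, the ranges that held both signs were -0.027 to 0.18 for NR3C1 on Ssc.15928.1.A1_at, -0.26 to 0.13 for HSD11B1, -0.62 to 0.17 for HSD11B2, -0.13 to 0.39 for the dimmer FKBP5 probe set, -0.38 to 0.069 and -0.014 to 0.22 for TSC22D3, -0.47 to 0.12 for SGK1, -0.091 to 0.16 for FOXO1 on its brighter probe set, and -0.13 to 0.017 and -0.063 to 0.019 for FOXO3.

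Correlations of the deviations of same-numbered animals were -0.39, -0.68 and -0.016 for numbers 1, 2 and 3. With 3 animals per group that differ in tissue markers, these values cannot settle whether the numbers pair the animals. The main fit was unpaired. With the replicate number as a block 76 probe sets met the threshold in place of 73. The standard error of FBXO32 was then 0.17 and 0.13 on its brighter and dimmer probe sets, in place of 0.33 and 0.22. FBXO32 was chosen from the comparison of CPB with Sham, and nothing is concluded from these standard errors. Those of other members moved both ways. For NR3C1 on Ssc.15928.1.S1_at the block gave 0.14 in place of 0.24, and for HSD11B1 0.30 in place of 0.25. When dim probe sets were left out, 10 of the 17 member probe sets remained in the fit, and the others have no value there.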
